A study of Mus musculus with 4 samples.

Results

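Striatal neurons that carry the dopamine D1 receptor were compared between BACHD and wild-type (WT) mice, using every gene with at least 10 CPM (counts scaled to a common library total) in either D1 library. This took in 9663 of the 37620 genes in the files. The D1 BACHD pool came from mice that were hemizygous for BACHD, a bacterial artificial chromosome (BAC) that carries full-length mutant huntingtin with 97 glutamines and drives it from the huntingtin regulatory sequence on the BAC. The D1 WT pool came from mice without that transgene. Both kinds of mice were FVB/NJ males of 5 to 6 months, and both also carried a Drd1-EGFP BAC reporter, by which striatal cells were sorted on green fluorescence. Each library pooled 4 animals, at 150000 cells an animal. There was 1 library a group, so no difference reported here has a replicate check and no p-value can be given. Pools of D2 cells, sorted with a Drd2-EGFP BAC reporter from BACHD and WT males of the same age and background, were made in the same way and are set beside the D1 values where they bear on them.

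Medium spiny neurons are the GABA-releasing output cells of the striatum. Those with the D1 receptor form the direct pathway to the substantia nigra and the internal pallidum, release dynorphin and substance P with GABA, and respond to dopamine by raising cAMP. Expanded huntingtin causes Huntington's disease, in which medium spiny neurons are lost and many of the genes that mark them fall.

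The D1 BACHD and D1 WT libraries held 41325600 and 41684355 estimated counts, and the D2 BACHD and D2 WT libraries 43856970 and 44523571. The 4 D1 markers were present in both D1 pools. Drd1 stood at 833.9 CPM in D1 BACHD and 937.4 CPM in D1 WT, Tac1, which encodes the substance P precursor, at 787.9 and 893.0 CPM, Pdyn, which encodes prodynorphin, at 328.4 and 268.3 CPM, and the transcription factor gene Isl1 at 65.1 and 60.2 CPM, each with D1 BACHD first. The 12 listed D1 markers summed to 3296 CPM in D1 BACHD and 3440 CPM in D1 WT, against 205.9 and 231.4 CPM in D2 BACHD and D2 WT. Mouse Htt stood at 162.3 CPM in D1 BACHD and 162.9 CPM in D1 WT, which does not check the genotype labels, since the transgene is human.

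Markers of other cells moved with the comparison. The 8 cortical glutamatergic markers summed to 148.3 CPM in D1 BACHD and 30.6 CPM in D1 WT, against 5.40 CPM in D2 BACHD and 3.19 CPM in D2 WT. All 8 were higher in D1 BACHD, and Emx1 was at 0 in D1 WT. The 12 astrocyte markers summed to 519.3 CPM in D1 BACHD and 466.7 CPM in D1 WT. Of these, 10 were higher and 2 lower in D1 BACHD. Slc4a4, the astrocyte marker with the most counts, was lower, at 260.5 CPM in D1 BACHD and 276.1 CPM in D1 WT. The 11 oligodendrocyte markers summed to 377.0 and 325.7 CPM and the 7 precursor markers to 51.5 and 38.3 CPM, D1 BACHD first. Most of the precursor sum was Vcan, at 47.3 CPM in D1 BACHD and 34.3 CPM in D1 WT. In all, 4 precursor markers were higher and 3 lower in D1 BACHD. The 11 microglia markers summed to 52.8 and 49.1 CPM, and the 10 measured interneuron markers to 29.9 and 23.7 CPM, D1 BACHD first. Vascular markers summed to 17.7 CPM in D1 BACHD and 16.5 CPM in D1 WT, the 6 ependymal and choroid markers to 2.98 and 7.72 CPM, and red blood cell markers to 0.508 and 0.984 CPM, with 2 of 5 red blood cell markers at 0 in D1 BACHD. The choroid plexus gene Ttr had 5 counts in D1 BACHD and 185 counts in D1 WT, and without it the ependymal and choroid sum was 2.86 CPM in D1 BACHD and 3.29 CPM in D1 WT. Mitochondrially encoded genes took 8.03% of counts in D1 BACHD and 5.87% in D1 WT, against 9.34% in D2 BACHD and 8.37% in D2 WT. The part of these differences in the results that follow was not tested. In pooled cells, fewer cells of a type and less RNA per cell cannot be told apart.

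Most genes stood close to a ratio of 1. The log2 ratio of D1 BACHD over D1 WT had a median of -0.01 with quartiles of -0.09 and 0.08. A gene passed the size rule when its ratio was 1.5 or more either way and the exact 95% counting interval of the ratio excluded 1. The intervals cover counting error only, and PCR copies are not independent molecules. The rule took 60 genes as higher in D1 BACHD (0.621% of those compared) and 24 as lower (0.248%), 0.869% in all. At a ratio of 2 it took 33 higher and 9 lower. The counting interval alone excluded 1 for 22% of genes on the higher side and 25.9% on the lower side.

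The genes that passed were mostly low in counts. Of the 60 higher genes, 39 reached 10 CPM in D1 BACHD only, and none had a mean of 100 CPM over both D1 libraries. Of the 24 lower genes, 12 reached 10 CPM in D1 WT only, and 2 had a mean above 100 CPM, Actn2 and Nefm. Among genes with a mean under 10 CPM, 19% passed, against 1.47% between 10 and 30 CPM, 0.269% between 30 and 100 CPM and 0.107% between 100 and 300 CPM. A gene with a mean under 10 CPM was compared only if either library reached 10 CPM. The filter thus favoured unequal values in that lowest group, and its 19% cannot be read as an effect of level. None of the 439 genes between 300 and 1000 CPM or the 73 above 1000 CPM passed. The median log2 ratio fell with level, from 0.01 between 10 and 30 CPM to -0.04 between 300 and 1000 CPM and -0.05 above 1000 CPM. The list medians given below were not adjusted for level.

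**Figure D1:**
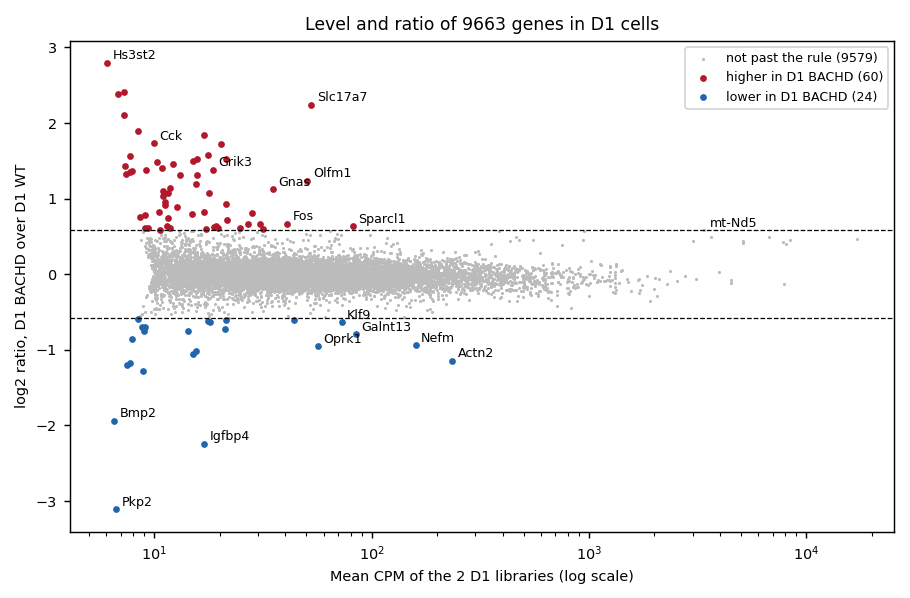
Mean CPM of both D1 libraries (log scale) against the log2 ratio of D1 BACHD over D1 WT for 9663 genes, with 60 higher genes in red, 24 lower genes in blue and dashed lines at a ratio of 1.5. No red point lies above 100 CPM, where Actn2 and Nefm are the blue points.

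Genes lower in D1 BACHD included cytoskeletal and junction genes, secreted growth regulators, and membrane receptors and peptidases. These groupings of the 23 named lower genes were made after their values were seen. The cytoskeletal and junction genes were Pkp2, Actn2, Nefm, Wipf1 and Carmil1. Pkp2, which encodes the desmosomal protein plakophilin, had the lowest ratio of all genes compared, at 1.38 CPM in D1 BACHD and 11.9 CPM in D1 WT (log2 ratio -3.11, interval -3.53 to -2.71). Pkp2 lies on chromosome 16 at 16213318 to 16272712 (GRCm38, plus strand). Actn2 encodes an alpha-actinin that crosslinks actin in dendritic spines and binds NMDA receptors. It stood at 146.3 CPM in D1 BACHD and 324.2 CPM in D1 WT (-1.14, interval -1.19 to -1.10), or 49.8 and 110.2 FPKM, and lies on chromosome 13 at 12269426 to 12340760 (GRCm38, minus strand). Nefm, the medium neurofilament subunit gene, stood at 108.8 CPM in D1 BACHD and 209.5 CPM in D1 WT (-0.94). The light subunit gene Nefl, which overlaps Nefm on the other strand in the annotation, was at 188.8 and 249.1 CPM (-0.39), and the heavy subunit gene Nefh at 21.5 and 25.5 CPM (-0.24), D1 BACHD first, neither past the rule. Wipf1 and Carmil1, both regulators of actin assembly, were at -0.76 and -0.60.

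The secreted factors were Igfbp4, Bmp2 and Epyc. Igfbp4, whose protein binds insulin-like growth factors, stood at 5.90 CPM in D1 BACHD and 28.1 CPM in D1 WT (-2.24, interval -2.45 to -2.04). Bmp2, a bone morphogenetic protein gene on chromosome 2 (133552159 to 133562885, GRCm38, plus strand), stood at 2.69 CPM in D1 BACHD and 10.3 CPM in D1 WT (-1.94, interval -2.25 to -1.63). Epyc, which encodes a small leucine-rich proteoglycan, stood at 10.6 and 17.97 CPM in D1 BACHD and D1 WT (-0.76). Of the 29 genes compared on the list of growth factors and receptors, 2 passed as lower and none as higher, and the list's median log2 ratio was -0.07. Next after Igfbp4 and Bmp2 came the neuregulin receptor gene Erbb4, at 15.0 CPM in D1 BACHD and 19.3 CPM in D1 WT (-0.36).

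Receptor and peptidase genes also passed as lower. Oprk1, the kappa opioid receptor and so the receptor for dynorphin, stood at 38.5 CPM in D1 BACHD and 74.8 CPM in D1 WT (-0.95, interval -1.04 to -0.87). Its ligand gene Pdyn was on the other side of 1 (log2 ratio 0.30) and did not pass the rule. Mme, which encodes the enkephalin-cleaving peptidase neprilysin, stood at 34.7 CPM in D1 BACHD and 53.3 CPM in D1 WT (-0.61). Phex, an endopeptidase gene of the same family, stood at 9.75 and 20.3 CPM in D1 BACHD and D1 WT (-1.05). The membrane serine protease gene Tmprss6 passed narrowly (-0.59). The scavenger receptor gene Cd163 passed at low counts, with 5.59 CPM in D1 BACHD and 10.1 CPM in D1 WT (-0.85).

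Other lower genes were Galnt13, which starts O-linked glycans (61.5 CPM in D1 BACHD and 107.1 CPM in D1 WT, -0.79), the transcription factor gene Klf9 (56.7 and 88.6 CPM, -0.64), the chloride channel gene Cftr (4.53 and 10.4 CPM, -1.20) and Ahcy, which clears S-adenosylhomocysteine (10.2 and 20.8 CPM, -1.02), D1 BACHD first in each pair. The imprinted gene Peg10 was at -0.70, Odf4 at -1.27, Asb11 at -0.62 and the zinc finger gene Zkscan16 at -0.70. St8sia3os was at -1.18, with 4.72 CPM in D1 BACHD and 10.7 CPM in D1 WT, but it lies antisense to St8sia3, which stood at 593.2 and 703.9 CPM there. Glod4 (-0.72) overlaps Vps53 and Gemin4 on its own strand. Whether counting used strand is not given in the sources used here, so the split of reads between such partners is uncertain.

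**Figure D2:**
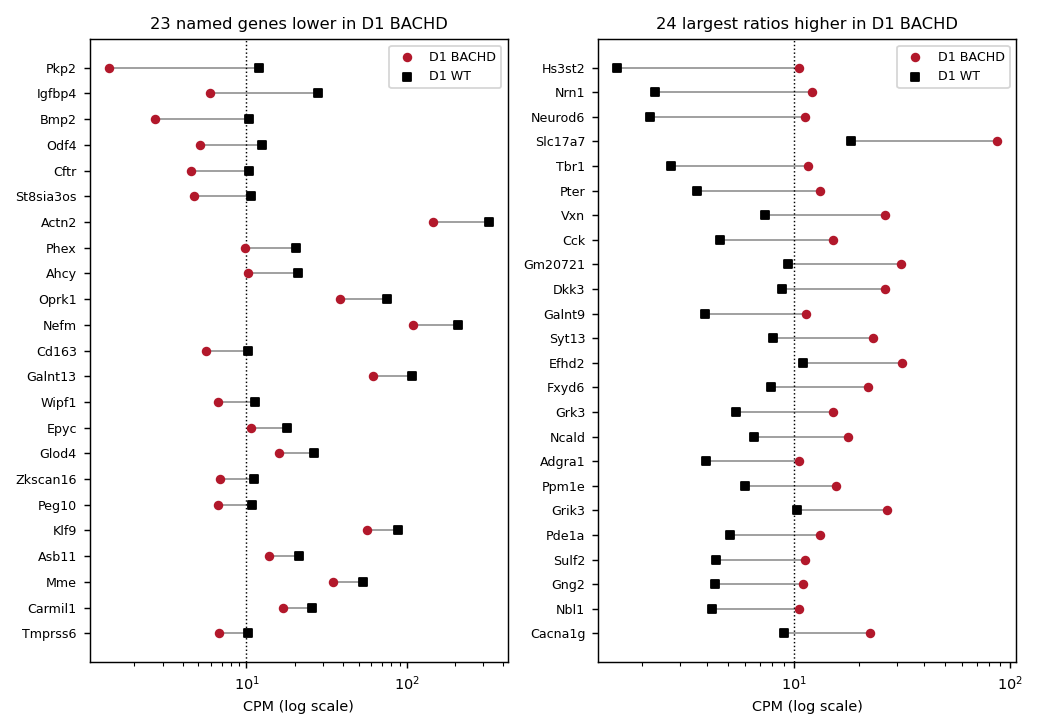
CPM (log scale) in D1 BACHD (red circles) and D1 WT (black squares) for the 23 named lower genes on the left and the 24 largest higher ratios on the right, with a dotted line at 10 CPM. Pkp2 spans 1.38 to 11.9 CPM and Slc17a7 spans 86.9 to 18.4 CPM, D1 BACHD first, while most right-hand genes reach the dotted line in D1 BACHD only.

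The 58 named genes higher in D1 BACHD comprised 5 listed cortical markers, among them Slc17a7, the vesicular glutamate transporter gene (86.9 CPM in D1 BACHD and 18.4 CPM in D1 WT), and 53 others. The others were grouped after their values were seen, and were not separated from cortical signal. Of all 60 higher genes, 38 stood under 10 CPM in both D2 libraries. There Slc17a7 stood at 0.844 CPM in D2 BACHD and 0.651 CPM in D2 WT. Vxn was at 1.03 and 1.35 CPM, Pde1a at 1.35 and 1.71 CPM and Pter at 0.160 and 0.225 CPM, while Sparcl1 was at 87.0 and 81.8 CPM, D2 BACHD first. Whether such genes came from D1 neurons or other cells was not tested. In the group of secreted and matrix proteins, 8 genes passed. Cck, the cholecystokinin gene, stood at 15.2 CPM in D1 BACHD and 4.61 CPM in D1 WT (log2 ratio 1.73), and its receptor gene Cckbr was also higher, at 15.6 and 7.46 CPM (1.07). Dkk3, a Dickkopf family gene, stood at 26.4 CPM in D1 BACHD and 8.88 CPM in D1 WT (1.58), and the olfactomedin gene Olfm1 at 70.8 and 30.3 CPM (1.23, interval 1.14 to 1.33). Olfm2 was at 0.89, the BMP antagonist gene Nbl1 at 1.33 and the heparan sulfatase gene Sulf2 at 1.36. Sparcl1, a synapse-promoting matrix protein made largely by astrocytes, had the most counts of the genes that passed as higher, at 99.5 CPM in D1 BACHD and 64.4 CPM in D1 WT (0.63). Of the 12 astrocyte markers, 10 were higher and 2 lower in D1 BACHD. The glutamate transporter genes Slc1a3 and Slc1a2 were at 0.52 and 0.47, while Slc4a4, with the most counts of the list, stood at 260.5 CPM in D1 BACHD and 276.1 CPM in D1 WT (-0.08), and Gfap at 0.944 and 1.49 CPM (-0.65).

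Receptor and second-messenger genes gave 9 more. Gnas, which encodes the stimulatory G protein alpha subunit, stood at 48.1 CPM in D1 BACHD and 22.2 CPM in D1 WT (1.12), but it overlaps Gm20721 on the other strand (31.1 and 9.45 CPM, 1.73), and reads of these genes cannot be told apart without strand. Gnas stood higher in D2 cells and on the other side of 1, at 119.3 CPM in D2 BACHD and 131.7 CPM in D2 WT (-0.15). Gm20721 was at 99.6 and 76.0 CPM there (0.39). The others included the adenylyl cyclase gene Adcy2 (0.83), the calmodulin-dependent phosphodiesterase gene Pde1a (1.38), the G protein subunit gene Gng2 (1.35), the receptor kinase gene Grk3 (1.48) and Sstr2, a somatostatin receptor gene (32.8 CPM in D1 BACHD and 20.9 CPM in D1 WT, 0.66). The kainate receptor gene Grik3 stood at 26.9 CPM in D1 BACHD and 10.4 CPM in D1 WT (1.38, interval 1.22 to 1.54). It is an indirect-pathway marker on the lists used, at 438.7 CPM in D2 BACHD and 431.4 CPM in D2 WT. Of the other D2 markers compared, Drd2 stood at 20.8 CPM in D1 BACHD and 20.7 CPM in D1 WT (0.01), Adora2a was at 0.12, Penk at -0.20 and Gprin3 at -0.52. Gprin3 did not set D2 cells apart here. It stood at 7.16 CPM in D1 BACHD and 10.3 CPM in D1 WT, against 7.21 and 9.88 CPM in D2 BACHD and D2 WT.

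Genes of ion transport and calcium binding gave 8. Cacna1g, a T-type calcium channel gene, stood at 22.4 CPM in D1 BACHD and 9.07 CPM in D1 WT (1.31), the potassium channel gene Kcna6 at 21.6 and 12.3 CPM (0.82) and Fxyd6, a sodium pump regulator, at 22.1 and 7.89 CPM (1.49). The neuronal calcium sensor genes Ncald and Vsnl1 were at 1.46 and 0.80. The remaining genes included the guidance receptor gene Plxna1 (0.92), the adhesion genes Amigo2 (1.04) and Ptpru (1.31), the synaptotagmin gene Syt13 (1.53), the kinase genes Mapk11 (1.14) and Cdk14 (0.61), the stathmin gene Stmn1 (0.95), the desaturase gene Scd1 (0.61) and Vxn (26.5 CPM in D1 BACHD and 7.41 CPM in D1 WT, 1.84). Gm11223, annotated as a processed pseudogene, was at 1.08 and its reads may belong to a related gene.

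Most of the lower genes also stood lower in D2 cells, while the higher genes were divided there. The D1 and D2 comparisons share no library, and no difference between them could be tested. Of the 24 lower genes, 21 had a D2 counting interval under 1, where 22.4% of all genes compared did, and 13 passed the same rule in D2 cells, where 0.486% did. Those 13 made 54.2% of the D1 list and 27.7% of the 47 that passed as lower in D2 cells. Of the 24, 10 stood under 10 CPM in both D2 libraries. Pkp2 stood at 0.752 CPM in D2 BACHD and 3.37 CPM in D2 WT (-2.17), Actn2 at 160.4 and 274.1 CPM (-0.78), Oprk1 at 27.02 and 53.8 CPM and Nefm at 91.8 and 162.5 CPM (-0.83). Ahcy was the 1 lower gene whose D2 interval lay above 1, at 3.47 CPM in D2 BACHD and 2.56 CPM in D2 WT (0.43).

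Of the 60 higher genes, 23 had a D2 interval above 1, where 20.4% of all genes compared did, 30 had one that included 1, and 7 had one under 1. Of the 60, 5 passed as higher in D2 cells, where 0.155% of genes did, which is 8.33% of the D1 list and 33.3% of the D2 list of 15. These 5 were Hs3st2, Nrn1, Fxyd6, Cckbr and Olfm2. Of them only Olfm2 reached 10 CPM in a D2 library, and Nrn1 passed on 19 counts in D2 BACHD and 8 counts in D2 WT. Low counts limit this reading, since 38 of the 60 stood under 10 CPM in both D2 libraries. Among those with more, Olfm1 stood at 19.9 CPM in D2 BACHD and 19.7 CPM in D2 WT (0.01) and Sparcl1 at 87.0 and 81.8 CPM (0.09).

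**Figure D3:**
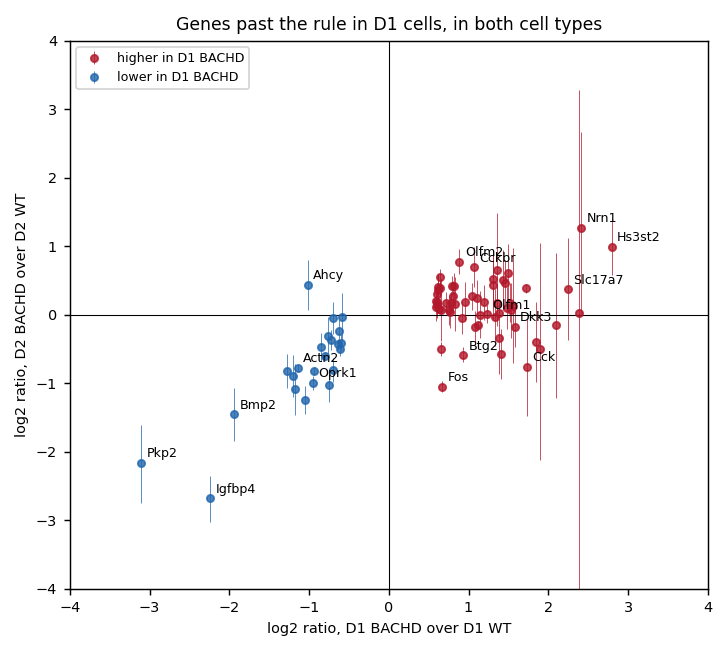
Log2 ratio of BACHD over WT in D1 cells (horizontal) against D2 cells (vertical, bars are 95% counting intervals cut at the edge of the plot) for the named genes that passed the rule in D1 cells. Blue lower genes run down the lower left with Ahcy above the line at 0.43, while red higher genes lie around 0 on the vertical axis, with Fos at -1.05.

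Immediate early genes, which neurons switch on within minutes of synaptic activity through calcium and cAMP signals, formed a group with opposite ratios in the 2 cell types. The RNA came from sorted cells, and whether these ratios arose in the animals or during sorting was not tested. Fos and Fosb encode AP-1 subunits, and Btg2 is an antiproliferative gene induced by the same signals. Their promoters are shown because these 3 list members passed the rule. The sequences are from RefSeq (GRCm38.p6), 250 bases before to 50 after the start, written 5′ to 3′ on the gene's strand. Capitals mark TGACGTCA, the cAMP response element, and its core TGACG, which the full element contains on both strands.
Fos (chr12:85473640-85473939, plus strand): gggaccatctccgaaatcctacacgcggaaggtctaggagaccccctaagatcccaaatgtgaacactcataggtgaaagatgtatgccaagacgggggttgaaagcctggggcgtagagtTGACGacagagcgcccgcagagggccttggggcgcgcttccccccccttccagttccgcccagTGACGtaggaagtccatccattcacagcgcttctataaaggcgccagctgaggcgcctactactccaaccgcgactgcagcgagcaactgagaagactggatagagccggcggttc
Fosb (chr7:19309996-19310295, minus strand): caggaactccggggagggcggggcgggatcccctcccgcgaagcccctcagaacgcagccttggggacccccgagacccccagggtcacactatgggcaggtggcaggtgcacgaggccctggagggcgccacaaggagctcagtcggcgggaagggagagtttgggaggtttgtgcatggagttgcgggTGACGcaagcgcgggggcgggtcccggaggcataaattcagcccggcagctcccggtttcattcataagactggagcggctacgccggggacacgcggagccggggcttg
Btg2 (chr1:134079106-134079405, minus strand): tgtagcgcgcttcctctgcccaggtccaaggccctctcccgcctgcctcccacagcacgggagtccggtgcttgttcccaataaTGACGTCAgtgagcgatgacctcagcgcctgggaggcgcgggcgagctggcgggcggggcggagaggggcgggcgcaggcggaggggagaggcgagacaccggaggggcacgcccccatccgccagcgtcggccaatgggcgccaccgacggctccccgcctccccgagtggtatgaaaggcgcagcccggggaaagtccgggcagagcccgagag
The Fos window held the core at -129 to -125 and at -66 to -62 relative to the start, the Fosb window at -60 to -56, and the Btg2 window the full element at -166 to -159. Both strands were searched. Of 27025 mouse promoter windows of this length, 1.88% held the full element and 21% the core. Of the 13 immediate early genes with a window, 1 held the full element and 8 the core. The CArG box, the serum response factor motif, was found in 1.57% of all windows and in 0 of the 13. Sequence more than 250 bases before the start was not searched, so these counts do not show that a gene lacks a motif. A match is a description of letters and says nothing of binding.

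Fos stood at 49.9 CPM in D1 BACHD and 31.6 CPM in D1 WT (log2 ratio 0.67, interval 0.57 to 0.77). In D2 cells it stood at 40.3 CPM in D2 BACHD and 83.5 CPM in D2 WT (-1.05, interval -1.14 to -0.97). Both BACHD pools were thus between the WT pools, which lay farthest apart. Fosb stood at 37.5 CPM in D1 BACHD and 23.9 CPM in D1 WT (0.66), against 31.1 and 44.1 CPM in D2 BACHD and D2 WT (-0.50). Btg2 stood at 28.0 CPM in D1 BACHD and 14.8 CPM in D1 WT (0.93), against 25.6 and 38.4 CPM in D2 BACHD and D2 WT (-0.59). For Fosb and Btg2 the BACHD pools also lay between the WT pools.

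Of the 15 immediate early transcription factor genes compared, 3 passed as higher in D1 BACHD and none as lower, 14 were above 1, 13 with an interval above 1, and the median log2 ratio was 0.34. In D2 cells 13 of the 15 were under 1, 13 with an interval under 1, and the median was -0.61. For 11 of the 15 the D1 interval lay above 1 and the D2 interval under it. Egr3 was the member under 1 in D1 cells (-0.06). Nr4a3 (0.52), Npas4 (0.37), Junb (0.34) and Nr4a1 (0.26) did not reach the rule. Among 15 activity-induced effector genes, none passed, 14 were above 1 and the median was 0.18. In D2 cells 13 of those 15 were under 1, and the median was -0.26. Arc, whose protein acts in synaptic plasticity, had the largest ratio among them, at 460.7 CPM in D1 BACHD and 311.6 CPM in D1 WT (0.57), against 450.0 and 741.5 CPM in D2 BACHD and D2 WT (-0.72). The secreted pentraxin gene Nptx2 stood at 36.8 CPM in D1 BACHD and 25.7 CPM in D1 WT (0.52), and the phosphatase genes Dusp5 and Dusp1 were at 0.45 and 0.37. Csrnp1, another gene induced early, was on no list and passed in D1 cells (0.76, against 0.03 in D2 cells).

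**Figure D4:**
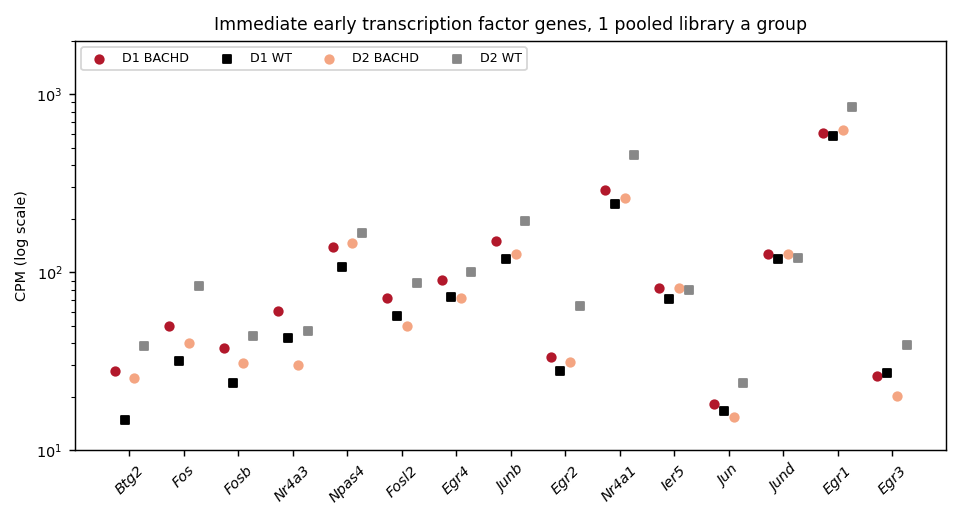
CPM (log scale) of the 15 immediate early transcription factor genes compared, in D1 BACHD (red circles), D1 WT (black squares), D2 BACHD (orange circles) and D2 WT (grey squares), 1 pooled library each. D1 BACHD lies above D1 WT for 14 of 15, with Egr3 the exception, and D2 BACHD lies under D2 WT for 13 of 15, with Jund and Ier5 the exceptions. Fos was at 49.9, 31.6, 40.3 and 83.5 CPM in that order.

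Genes that define medium spiny neurons of both pathways mostly stood slightly under 1, as did the median ratio of all genes in each level group above 100 CPM. Of 33 compared, 1 passed as lower (Actn2), none as higher, 25 were under 1 and the median log2 ratio was -0.07. The largest ratios after Actn2 were the cannabinoid receptor gene Cnr1 at 700.2 CPM in D1 BACHD and 956.5 CPM in D1 WT (-0.44) and the striatal phosphodiesterase gene Pde10a at 1666 and 2146 CPM (-0.36). Another phosphodiesterase gene, Pde7b, was at -0.33 while Pde1b, at 2734 CPM in D1 BACHD and 2802 CPM in D1 WT, was at -0.03. Among dopamine signalling genes, the 22 of protein kinase A and its phosphatases gave none past the rule, 16 under 1 and a median of -0.07. The 21 G protein and cyclase genes gave 3 higher (Gnas, Gng2 and Adcy2) and a median of 0.02. Gnas overlaps Gm20721, as given above. Gng2 stood at 11.1 CPM in D1 BACHD and 4.34 CPM in D1 WT, against 0.775 and 0.494 CPM in D2 BACHD and D2 WT. Adcy2 stood at 13.4 and 7.58 CPM in D1 BACHD and D1 WT, against 2.62 and 2.36 CPM in D2 BACHD and D2 WT. Whether these ratios arose in D1 neurons was not tested. Adcy5, the main striatal adenylyl cyclase gene, was at -0.13, and the G protein subunit gene Gng7 at 0.13. Outside the dopamine pathway, the orphan receptor gene Gpr155 stood at 302.8 CPM in D1 BACHD and 453.9 CPM in D1 WT (-0.58), just under the rule, with -0.17 in D2 cells. The kinase gene Lrrk2, named after its value was seen, was at 113.1 and 167.6 CPM in D1 BACHD and D1 WT (-0.56). In D2 cells it passed as lower (-0.71).

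Peptide receptors were 7 of 8 above 1, with Oprk1 the exception. After Cckbr and Sstr2, the PACAP receptor gene Adcyap1r1 stood at 77.2 CPM in D1 BACHD and 57.0 CPM in D1 WT (0.44), and the neuropeptide Y receptor gene Npy1r at 33.2 and 25.7 CPM (0.37). In D2 cells the list also had 7 of 8 above 1, with a median of 0.34, against 0.28 in D1 cells. Of 12 peptide precursor genes, 1 passed as higher (Cck), and the median was 0.10. The chemokine gene Cxcl14, on that list, stood at 49.4 CPM in D1 BACHD and 37.0 CPM in D1 WT (0.42). In D2 cells it passed as higher, at 29.8 CPM in D2 BACHD and 13.4 CPM in D2 WT (1.16).

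Channel and synapse lists had medians near that of all genes. Voltage-gated sodium channels had none of 10 past the rule and a median of -0.02, potassium channels 1 of 37 (Kcna6) and -0.02, glutamate receptors 1 of 22 (Grik3) and -0.03, and GABA and glycine transmission none of 21 and -0.04. Within the last list, the GABA synthesis gene Gad1 stood at 731.4 CPM in D1 BACHD and 870.8 CPM in D1 WT (-0.25) and the vesicular GABA transporter gene Slc32a1 at -0.30. Listed calcium channel, pump and kinase genes had 2 of 42 past the rule, both higher (Ncald and Cacna1g), yet 31 under 1 and a median of -0.09. There Calm2, a calmodulin gene, stood at 1850 CPM in D1 BACHD and 2264 CPM in D1 WT (-0.29), and Hpcal4, a neuronal calcium sensor gene, at 497.0 and 368.0 CPM (0.44). The kinase gene Camk1 (0.61) and Vsnl1 (0.80) also passed as higher but were not on that list. Among postsynaptic scaffold genes, the neurabin gene Ppp1r9a was at -0.34 and Dlgap1 at 0.45, with Actn2 the 1 of 32 that passed.

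Mitochondrially encoded genes and nuclear genes of the same complexes lay on opposite sides of 1. All 18 mitochondrially encoded genes compared were above 1, each with an interval above 1, with a median of 0.46. The D2 comparison had 17 of the 18 above 1, 16 with an interval above 1, and a median of 0.15. The tRNA gene mt-Tl1 passed (23.5 CPM in D1 BACHD and 15.1 CPM in D1 WT, 0.64) and mt-Nd5 was just under the rule (0.58). These genes share 1 molecule and the share of mitochondrial RNA in a library, so they are not separate observations. Nuclear complex I subunits had 32 of 37 under 1 and a median of -0.13, against -0.02 in D2 cells, and none passed. Citric acid cycle genes had 23 of 25 under 1 and a median of -0.11, with Suclg1 at 60.2 CPM in D1 BACHD and 77.6 CPM in D1 WT (-0.36) and Sdha at -0.34. Proteasome subunits had 30 of 34 under 1 and a median of -0.11, and splicing factors 37 of 48 and -0.09, none past the rule. In all genes compared, 48.5% were above 1 and 51.5% under 1 in D1 cells, and 50.1% and 49.9% in D2 cells.

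Further lists had medians closer to 0. Cytosolic ribosomal protein genes had 56 of 78 above 1 and a median of 0.05, and cholesterol genes 18 of 27 and 0.09. Heat shock and chaperone genes had 28 of 37 under 1 and a median of -0.08, with the chaperonin gene Cct6a at 26.2 CPM in D1 BACHD and 35.6 CPM in D1 WT (-0.44). Genes of the unfolded protein and integrated stress responses had 13 of 26 above 1 and a median of -0.01. Huntingtin and its interactors had none of 22 past the rule and a median of 0.01, with the acetyltransferase gene Crebbp at 35.2 CPM in D1 BACHD and 44.7 CPM in D1 WT (-0.34).

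**Figure D5:**
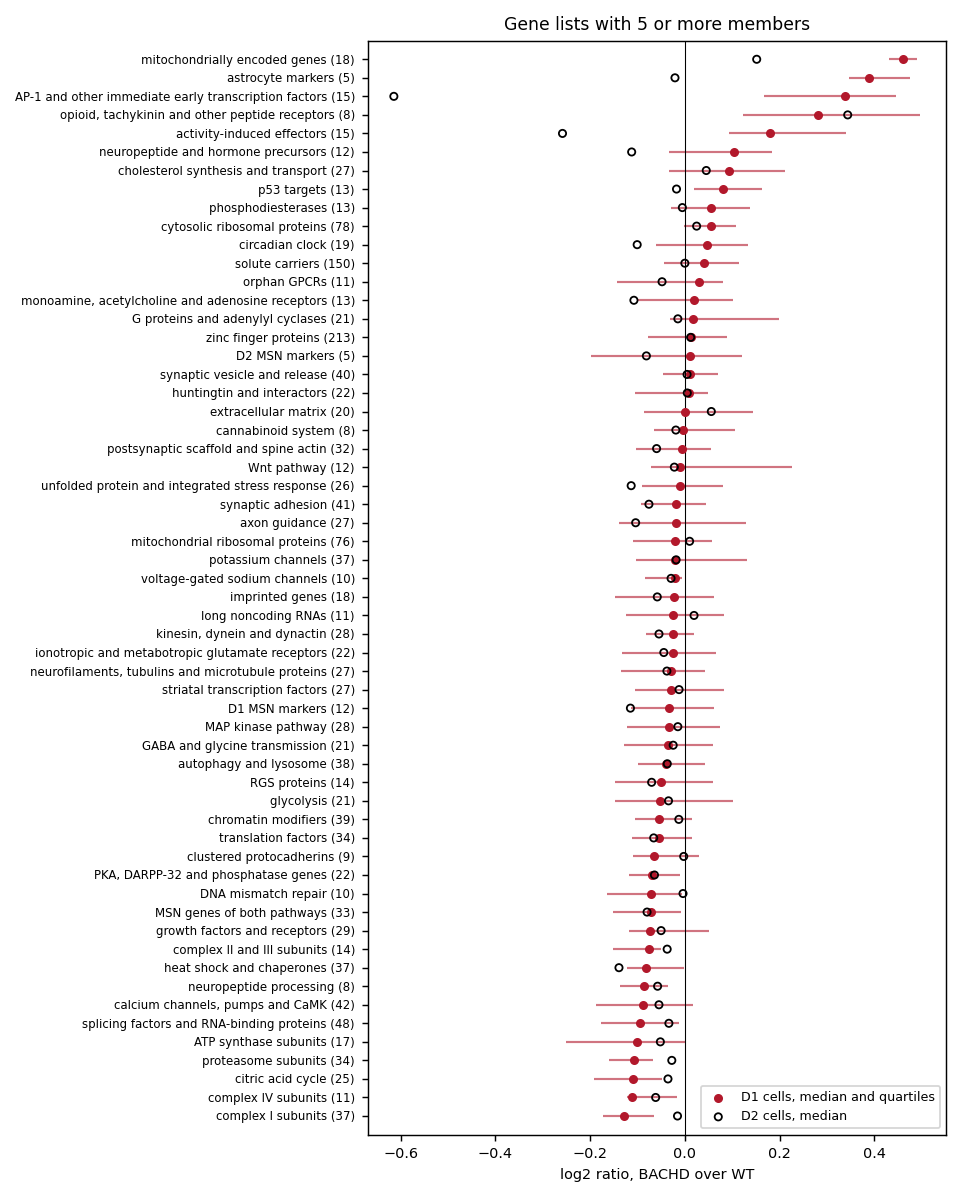
Median (red points) and quartiles (red lines) of the log2 ratio of BACHD over WT in D1 cells, with the D2 median as open circles, for gene lists with 5 or more genes compared (number in brackets), cortical markers left out. Mitochondrially encoded genes are at the top at 0.46 and complex I subunits at the bottom at -0.13, and the immediate early list has its D1 and D2 medians at 0.34 and -0.61.

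The deposited FPKM values gave a similar picture. With a pseudocount of 0.1, the log2(FPKM + 0.1) ratio had the same direction as the count ratio for 91.6% of genes, with a Pearson correlation of 0.963 across the 9663 genes, which are not independent and come from the same reads. By FPKM, 54 genes passed a ratio of 1.5 as higher (0.559%) and 25 as lower (0.259%). Of the 60 higher genes 54 passed and 59 kept their direction, and of the 24 lower genes 21 passed and all 24 kept it. Wnt7a was the exception in direction, at 13.96 CPM in D1 BACHD and 8.97 CPM in D1 WT (0.64), but 4.45 and 4.61 FPKM (-0.05). Cacna1g was at 1.31 by counts and 0.86 by FPKM. The 2 scales differed by more than 0.3 on the log2 scale for 18 genes.

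At the edges of the rules, Cyp7b1 entered with 8.98 CPM in D1 BACHD and just over 10 CPM in D1 WT, while Vav3 stayed out with 9.99 and 8.92 CPM. Mtss1l (0.59) and Tmprss6 (-0.59) were just inside the ratio of 1.5, and Mdm4 (-0.58) and mt-Nd5 (0.58) just outside.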

How the data were processed

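RNA from sorted striatal cells was sequenced in 4 pooled libraries. The authors deposited estimated counts, 1 per gene and library, of which about 19.6% of D1 entries were not whole, and FPKM values, scaled by gene length and library size. Per the submitters' processing notes, CASAVA 1.8.2 was run. No aligner, counting tool, strand setting, annotation or build is given in the sources used here. Estimated counts were rounded to whole numbers. Symbols matched 32897 identifiers, and 149 of the genes compared had none and are counted but not named. Coordinates are from a GENCODE annotation of GRCm38, which need not be the authors' build.

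CPM values use the library total. Ratios use TMM scaling over the 4 libraries (edgeR 4.0.16, R 4.3.3), with counts under 3 set to 3, which corresponds to 0.0726 CPM in D1 BACHD and 0.0720 CPM in D1 WT. Intervals are exact conditional binomial (Clopper-Pearson) at 95% (Python 3.11.15, scipy 1.17.1). The steps were tested on simulated data. With 1 library a group no test across samples exists. The 69 gene lists are described by counts and medians. The genes and lists were chosen with earlier results of these data known. Named genes are the 25 largest ratios each way that passed, the 10 of highest mean CPM each way, 5 members of each list by ratio and 3 by level, Htt and the D1 markers. Any further gene was named once its values were known. Alternatives were other scalings, filters, ratios and FPKM.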

Additional observations from a re-analysis of the deposited data

Results flagged for a closer look

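Genes that passed the size rule one way in D1 cells and the other way in D2 cells were Cck, Fos and Btg2. The D2 log2 ratio of BACHD over WT minus the D1 ratio was -2.49 for Cck, -1.72 for Fos and -1.52 for Btg2. With 1 pool a group these differences were not tested. For Cck the D2 libraries held 0.638 CPM in D2 BACHD and 1.08 CPM in D2 WT, so its D2 ratio rests on few counts. No group held enough libraries for a check of single outlying samples.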

How the results depend on the processing

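The counts of genes past the rule (60 higher, 24 lower) depend on the filter and the ratio. They were 21 and 12 with 10 CPM required in both D1 libraries, 11 and 6 at 30 CPM, 443 and 185 at 1 CPM, 730 and 366 with no filter, 33 and 9 at a ratio of 2, and 282 and 187 at the lowest ratio tried. Other scalings gave 59 to 71 higher and 21 to 26 lower genes, the largest shift coming from a library total without mitochondrially encoded genes (71 and 21), which moved the median log2 ratio of all genes to 0.02, against -0.01, so list medians this near 0 have no settled sign. FPKM gave 54 and 25 with a pseudocount of 0.1, and 46 and 17 with 1. The log2 ratio of Wnt7a reversed by FPKM, at -0.050 and -0.042 with these pseudocounts, and the cause was not tested. No paired analysis was possible because each group has 1 library, and no library could be left out for the same reason. Counting error is small above 100 CPM, but variation between pools was not measured.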

Other observations

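Some genes averaging 100 CPM or more over the D1 libraries were among those with the largest log2 ratios of BACHD over WT at that level without passing the size rule. They were picked with their values in view. On the lower side, Mctp1, which encodes a synaptic C2-domain protein, stood at 157.4 CPM in D1 BACHD and 222.5 CPM in D1 WT (-0.49, with -0.48 in D2 cells). Dgkb, a diacylglycerol kinase gene of striatal neurons, stood at 150.1 CPM in D1 BACHD and 209.1 CPM in D1 WT (-0.47, with -0.36 in D2 cells). Dock4, a Rac and Rap exchange factor gene, stood at 156.6 CPM in D1 BACHD and 215.8 CPM in D1 WT (-0.46, with -0.61 in D2 cells), and the mediator kinase gene Cdk19 at 97.4 CPM in D1 BACHD and 133.0 CPM in D1 WT (-0.44, with -0.58 in D2 cells). Ndfip1, an adaptor for ubiquitin ligases, stood at 107.4 CPM in D1 BACHD and 150.4 CPM in D1 WT (-0.48, with -0.24 in D2 cells). On the higher side, the vesicle protein gene Sv2b stood at 187.0 CPM in D1 BACHD and 149.7 CPM in D1 WT (0.33, with 0.01 in D2 cells), the phosphoprotein gene Pea15a at 114.3 CPM in D1 BACHD and 89.8 CPM in D1 WT (0.35, with 0.04 in D2 cells) and the silent potassium channel subunit gene Kcng1 at 122.4 CPM in D1 BACHD and 98.9 CPM in D1 WT (0.31, with 0.57 in D2 cells). With 1 pool a group these differences between cell types were not tested.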
